A study of Mus musculus with 12 samples.

Results

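The cytochrome b5 system was followed in 9 genes of Min6 cells: the reductase genes Cyb5r1, Cyb5r2, Cyb5r3, Cyb5r4 and Cyb5rl, the cytochrome b5 genes Cyb5a and Cyb5b, and Cyb5d1 and Cyb5d2, whose products carry a b5-like heme-binding domain. The genes were taken by symbol, and all 9 were found among the 24421 gene symbols of the count files. Min6 is an insulin-secreting mouse insulinoma line used as a model of the pancreatic beta cell. RNA was sequenced from 6 samples that received an adenovirus with a hairpin against Il22ra1, a subunit of the interleukin-22 receptor (sh-Il22ra1), and from 6 that received a control adenovirus (sh-ctrl, titled GFP). The genotype label of all 12 samples is WT, both groups carried virus for 48 h, and both were given 0.3 mM palmitate, a saturated fatty acid, for 24 h, so no group without virus or without palmitate enters the comparison. In sh-Il22ra1 replicates 2 to 6 the treatment label ends the gene name in a rising number, and the titles were followed. Whether a group's 6 samples are separate cultures is not stated, so the p-values measure only their spread, which could be technical. The series' title names cytochrome b5 reductase 3, and the question addressed here is how the whole electron-transfer family was expressed when Il22ra1 was knocked down.

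Cytochrome b5 is a small heme protein anchored in the endoplasmic reticulum or, for the form encoded by Cyb5b, in the outer mitochondrial membrane. NADH-dependent flavoprotein reductases, chiefly the product of Cyb5r3, load it with an electron, which it passes on to acyl-CoA desaturases, sterol oxidases, some cytochromes P450 and, at the mitochondrion, the amidoxime-reducing enzymes. In human red cells a soluble form of the Cyb5r3 product keeps hemoglobin reduced, and in mice loss of Cyb5r4, in which a b5 domain and a reductase domain are fused, leads to loss of beta cells and diabetes.

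Reads in genes numbered 14408576 to 15595603 per sh-Il22ra1 library and 13108494 to 15887448 per sh-ctrl library. Levels are given in CPM, counts per 1000000 gene reads after TMM scaling. The targeted gene Il22ra1 had 1 to 4 reads in the sh-Il22ra1 libraries and 7 to 20 reads in the sh-ctrl libraries, a CPM ratio of 0.198 (two-sided exact permutation test, p = 0.00216, the smallest that 6 against 6 allows), and it was too low for the test across genes. Reads that did not align made up 8.71% to 11.8% of the sh-Il22ra1 files and 12.8% to 17.3% of the sh-ctrl files, a difference that moves with the groups and whose part in the results was not tested. On the second principal component of log2 CPM, sh-ctrl replicates 1 (18.2) and 4 (31.9) stood apart from the other 4 sh-ctrl libraries (-17.7 to -0.13), and results were recomputed without them. Beta-cell transcripts marked every library (Ins2 42843 ± 3213 CPM in sh-Il22ra1 and 49546 ± 10346 CPM in sh-ctrl; SD, n = 6 each). Of 12 beta-cell markers 3 rose, 5 fell and 4 did not pass the test, which is 66.7% called beside 51.9% of all tested genes. Ins1 fell, at 2719 CPM in sh-Il22ra1 and 3499 CPM in sh-ctrl (log2 fold change -0.36, edgeR adjusted p = 0.00153). Neither Ins2 (-0.21, edgeR adjusted p = 0.1235) nor Pdx1 (-0.08, edgeR adjusted p = 0.221) passed. Summed markers of leukocytes were at 5.47 to 8.01 CPM in sh-Il22ra1 and 18.3 to 26.6 CPM in sh-ctrl (their part in the results was not tested), almost all of it Cd68, while Ptprc, the defining leukocyte gene, had 11 reads in all 12 libraries together. Fibroblast markers summed to at most 2.12 CPM in sh-Il22ra1 and 6.34 CPM in sh-ctrl and endothelial markers to at most 7.53 CPM in sh-Il22ra1 and 7.92 CPM in sh-ctrl. In the acinar list Prss1, Prss2, Amy2a5 and Ptf1a had no read, and in the duct list Krt7 alone was abundant and Sox9 had 2 reads. The duct list summed to 209.5 to 239.5 CPM in sh-Il22ra1 and 147 to 216 CPM in sh-ctrl, and Krt7 rose (220 ± 12.9 CPM in sh-Il22ra1 and 169.9 ± 24.1 CPM in sh-ctrl; SD, n = 6 each; log2 fold change 0.37, edgeR adjusted p = 0.00066). The other islet hormones summed to 145 to 158 CPM in sh-Il22ra1 and 243 to 294 CPM in sh-ctrl, and Gcg, the glucagon gene and nearly all of that sum, fell (147 ± 5.69 CPM in sh-Il22ra1 and 267 ± 18.1 CPM in sh-ctrl; SD, n = 6 each; -0.86, edgeR adjusted p = 7.74e-10). The sums of the leukocyte, fibroblast and other islet hormone lists thus moved with the groups, as did Krt7. Those of the duct and endothelial lists overlapped between groups, and the part of any list in the results was not tested.

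Of the 9 genes, Cyb5r3 fell in sh-Il22ra1, Cyb5a, Cyb5d2 and Cyb5d1 rose, and 5 did not pass the test (quasi-likelihood test of edgeR, Benjamini-Hochberg adjusted over 13102 genes, threshold 0.05). That is 4 of 9 against a background of 51.9% of all tested genes called, 25.4% higher and 26.5% lower, so the count of called members is no larger than in the transcriptome at large. The median log2 fold change, sh-Il22ra1 over sh-ctrl, was 0.00026 over the 9 genes and -0.0042 over all tested genes. Cyb5r3 had the 3rd lowest log2 fold change of the 13102, and the middle 90% of all tested genes ran from -0.88 to 0.61. The groups did not overlap in 3 of the 9 genes, Cyb5r3, Cyb5a and Cyb5d2, beside 28.1% of all tested genes. Every member passed the filter on low counts, and the smallest count of any member in any library was 54 reads.

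**Figure D1:**
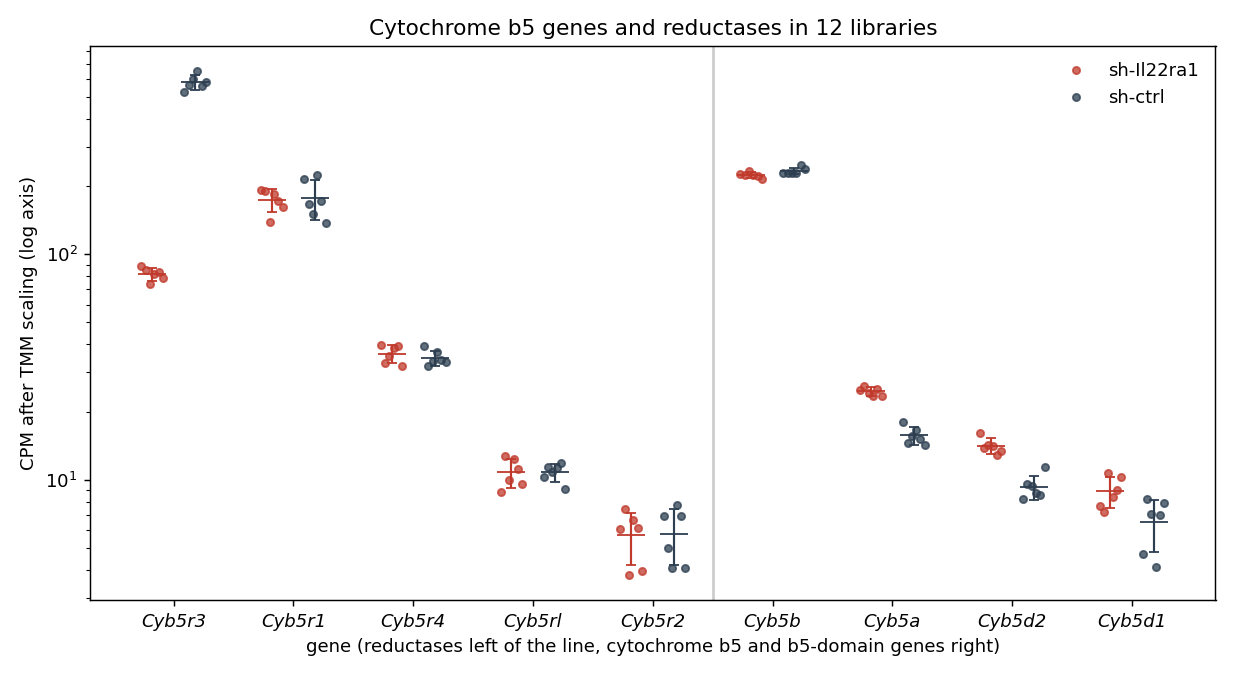
CPM of the 9 genes on a log axis, with sh-Il22ra1 libraries (red, left of each pair) and sh-ctrl libraries (dark, right), 6 points per group with the mean and SD. Cyb5r3 lies at 73.8 to 89.2 CPM in sh-Il22ra1 and 524 to 649 CPM in sh-ctrl, while the other 4 reductases and Cyb5b overlap between groups.

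Cyb5r3 encodes the main NADH-cytochrome b5 reductase of the endoplasmic reticulum and outer mitochondrial membrane. It lies on chromosome 15 from 83153494 to 83172592, minus strand (GRCm38). Its level was 73.8, 82.8 and 89.2 CPM (lowest, median, highest of 6) in sh-Il22ra1 and 524, 569 and 649 CPM in sh-ctrl. Even the highest sh-Il22ra1 library was far below the lowest sh-ctrl library, and neither sh-ctrl replicate 1 nor 4 closed the gap: they were the lowest and the highest sh-ctrl libraries for this gene. The means were 82.04 ± 5.40 CPM in sh-Il22ra1 and 578 ± 43.1 CPM in sh-ctrl (SD, n = 6 each), a log2 fold change of -2.82 (95% interval -2.96 to -2.68; edgeR adjusted p = 8.56e-16), and in bulk RNA fewer cells with the transcript and less of it per cell cannot be told apart. The spread between replicates was small beside this, with a coefficient of variation of 6.58% in sh-Il22ra1 and 7.46% in sh-ctrl, against medians of 8.64% and 12.9% over all tested genes. Per kilobase of exon Cyb5r3 ranked 3925th of 13032 genes in sh-Il22ra1 and 540th in sh-ctrl, or 2694th in sh-Il22ra1 and 293rd in sh-ctrl with the longest transcript as length. Gm49463 on the opposite strand covers 5.65% of its exon bases, and without a stated strand setting reads there cannot be told apart.

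No other reductase gene passed the test. Cyb5r1, a membrane-bound paralog, was at 139.9, 179 and 193 CPM in sh-Il22ra1 and at 138, 169 and 225 CPM in sh-ctrl (lowest, median, highest). The groups overlapped throughout, and the 2 highest values of the 12 were in sh-ctrl replicates 1 (216 CPM) and 4 (225 CPM). Its log2 fold change was -0.03 with a 95% interval of -0.26 to 0.20, and 0.14 without those 2 libraries (edgeR adjusted p = 0.825 and 0.116). Cyb5r4, the fused b5 and reductase gene whose loss causes diabetes in mice, was at 32.1 to 39.8 CPM in sh-Il22ra1 and 31.9 to 39.1 CPM in sh-ctrl. Its log2 fold change was 0.06 with a 95% interval of -0.09 to 0.22 (edgeR adjusted p = 0.487). Cyb5rl, a reductase-like gene, averaged 10.8 ± 1.55 CPM in sh-Il22ra1 and 10.8 ± 0.992 CPM in sh-ctrl (SD, n = 6 each), with an interval of -0.22 to 0.22. Cyb5r2, another reductase paralog, was the least precise, with 58 to 110 reads per sh-Il22ra1 library and 61 to 104 per sh-ctrl library. It lay at 3.80 to 7.45 CPM in sh-Il22ra1 and 4.08 to 7.79 CPM in sh-ctrl, with an interval of -0.43 to 0.39. The intervals of all 4 exclude any change near the size of that in Cyb5r3; they do not show that these genes were unchanged. Ppfibp2, on the opposite strand, covers 4.65% of the exon bases of Cyb5r2. Cyb5r1 lies on chromosome 1 from 134405559 to 134411740 and Cyb5r4 on chromosome 9 from 87022014 to 87077774. Cyb5rl lies on chromosome 4 from 107066988 to 107088268, all 3 on the plus strand, and Cyb5r2 on chromosome 7 from 107748455 to 107758032, minus strand.

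Cyb5a, which encodes the cytochrome b5 of the endoplasmic reticulum, rose. Its level was 23.6, 24.8 and 26.2 CPM in sh-Il22ra1 and 14.3, 15.5 and 18.1 CPM in sh-ctrl (lowest, median, highest). All 6 sh-Il22ra1 libraries were above all 6 sh-ctrl libraries, of which replicate 1 was highest. The log2 fold change was 0.65 (95% interval 0.49 to 0.81; edgeR adjusted p = 1.09e-06), a level 1.57 times that of sh-ctrl. The gene lies on chromosome 18 from 84838704 to 84879871, plus strand.

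Cyb5b, which encodes the outer mitochondrial membrane form, was the steadiest of the 9 genes. It was at 215, 224 and 234 CPM in sh-Il22ra1 and at 229, 229.7 and 248 CPM in sh-ctrl, with coefficients of variation of 2.85% in sh-Il22ra1 and 3.31% in sh-ctrl. The gene lies on chromosome 8 from 107150640 to 107187471, plus strand. In 5 of the 6 sh-Il22ra1 libraries it was below every sh-ctrl library, yet the difference was small: the log2 fold change was -0.06 (95% interval -0.16 to 0.04) and did not pass (edgeR adjusted p = 0.319). Cyb5a and Cyb5b therefore differed in call, and the read ratio of Cyb5a to Cyb5b, which does not depend on library scaling, was 0.110 ± 0.00517 in sh-Il22ra1 and 0.0676 ± 0.00717 in sh-ctrl (SD, n = 6 each). The ranges of that ratio, 0.104 to 0.117 in sh-Il22ra1 and 0.0601 to 0.0785 in sh-ctrl, did not overlap.

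The 2 domain genes were higher in sh-Il22ra1, with unequal support. Cyb5d2, which encodes the heme-binding protein neuferricin, was at 12.95, 14.1 and 16.2 CPM in sh-Il22ra1 and at 8.23, 9.10 and 11.4 CPM in sh-ctrl (lowest, median, highest). No libraries of the 2 groups overlapped, and the log2 fold change was 0.60 (95% interval 0.40 to 0.80; edgeR adjusted p = 4.36e-05). Cyb5d1 was at 7.25, 8.75 and 10.8 CPM in sh-Il22ra1 and at 4.12, 7.03 and 8.23 CPM in sh-ctrl. The groups overlapped, and the lowest values of the 12 were those of sh-ctrl replicates 4 (4.12 CPM) and 1 (4.69 CPM). Its log2 fold change of 0.44 (95% interval 0.11 to 0.78; edgeR adjusted p = 0.0249) was 0.22 without those 2 libraries, at adjusted p = 0.129. The call also ended without sh-ctrl replicate 1 alone (0.37, adjusted p = 0.0549), without sh-Il22ra1 replicate 3 (0.38, adjusted p = 0.0640) or 6 (0.39, adjusted p = 0.0683), and with offsets fitted to length and GC (0.28, adjusted p = 0.194), in the same edgeR test. Both genes lie on chromosome 11, Cyb5d1 from 69391925 to 69395631 and Cyb5d2 from 72777232 to 72796142, both on the minus strand. Naa38 on the opposite strand overlaps the annotated span of Cyb5d1, though not its exons in the basic transcript set.

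**Figure D2:**
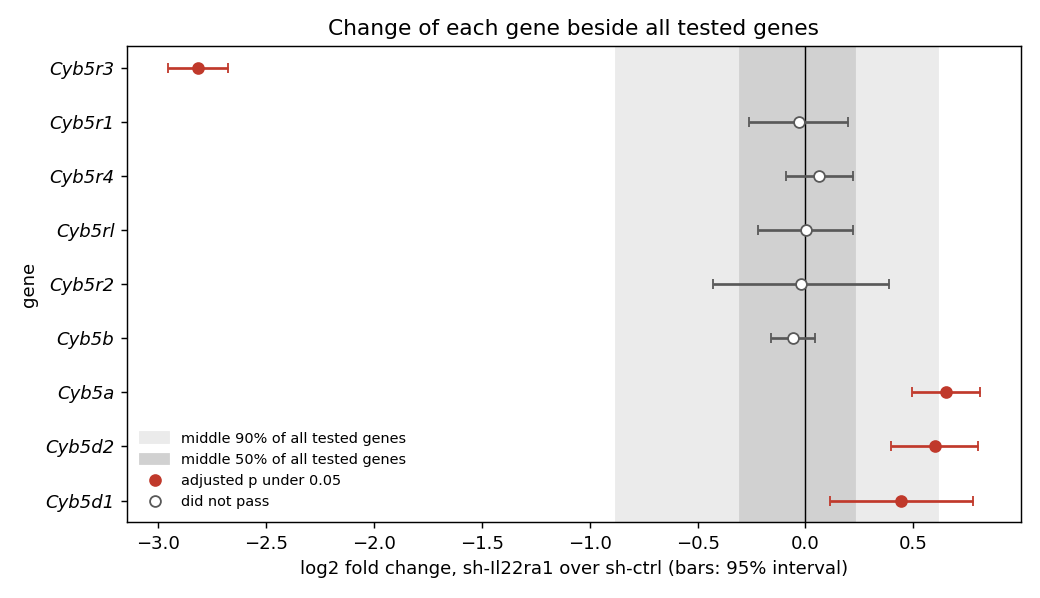
Log2 fold change, sh-Il22ra1 over sh-ctrl, of each gene with its 95% interval; filled points passed the edgeR test and grey bands span the middle 50% and 90% of all tested genes. Cyb5r3 at -2.82 lies far outside the bands, Cyb5a at 0.65 lies just above the upper limit of 0.61, and the other 7 genes lie within the middle 90%.

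The members were ranked by level per length, as CPM per kilobase of exon. Read ratios between members are not scaled by length and serve only to compare the groups. In sh-Il22ra1 the order was Cyb5r1 (94.7 ± 11.1), Cyb5b (52.0 ± 1.48), Cyb5a (25.9 ± 1.11), Cyb5r3 (19.1 ± 1.26), Cyb5r4 (13.8 ± 1.24), Cyb5d1 (8.08 ± 1.27), Cyb5d2 (5.63 ± 0.443), Cyb5rl (3.42 ± 0.489) and Cyb5r2 (2.05 ± 0.535; SD, n = 6 each). In that group no 2 neighbours in the order overlapped over the libraries. In sh-ctrl the order was Cyb5r3 (134 ± 10.02), Cyb5r1 (96.9 ± 19.2), Cyb5b (54.2 ± 1.80), Cyb5a (16.5 ± 1.47), Cyb5r4 (13.2 ± 1.01), Cyb5d1 (5.90 ± 1.54), Cyb5d2 (3.71 ± 0.454), Cyb5rl (3.42 ± 0.313) and Cyb5r2 (2.09 ± 0.582; SD, n = 6 each). There the ranges of Cyb5r3 and Cyb5r1 touched, as did those of Cyb5d1 and Cyb5d2 and of Cyb5d2 and Cyb5rl. The order thus differed between groups in the place of Cyb5r3, which was 4th in sh-Il22ra1 and 1st in sh-ctrl. With the longest transcript as length, Cyb5r3 was at 32.2 per kilobase in sh-Il22ra1, above Cyb5a at 29.7, and at 227 in sh-ctrl, so its place beside Cyb5a rests on the length used.

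Within the reductases the largest share was that of Cyb5r1 in sh-Il22ra1 and that of Cyb5r3 in sh-ctrl. Cyb5r3 made up 14.4% ± 0.677 of the length-scaled reductase level in sh-Il22ra1 and 54.0% ± 4.63 in sh-ctrl (SD, n = 6 each), or 21.97% in sh-Il22ra1 and 66.2% in sh-ctrl with the longest transcript as length. Cyb5r1 made up 71.1% ± 1.57 in sh-Il22ra1 and 38.5% ± 4.54 in sh-ctrl. The summed level of the 5 reductase genes was 133 ± 13.4 CPM per kilobase in sh-Il22ra1 and 250.0 ± 24.00 in sh-ctrl, and without Cyb5r3 it was 114 ± 12.2 in sh-Il22ra1 and 116 ± 20.6 in sh-ctrl. The other 4 together thus differed by less than their spread, with Cyb5r1 the largest part. Among sh-ctrl libraries that sum was highest in replicates 1 (138) and 4 (143), and the rest ran from 91.9 to 113. Cyb5a and Cyb5b together were at 77.9 ± 1.99 CPM per kilobase in sh-Il22ra1 and 70.7 ± 1.84 in sh-ctrl. Per read of Cyb5a there were 3.32 ± 0.179 reads of Cyb5r3 in sh-Il22ra1 and 36.8 ± 4.06 in sh-ctrl, with ranges of 3.03 to 3.54 in sh-Il22ra1 and 29.0 to 40.3 in sh-ctrl. Per read of Cyb5b the figures were 0.366 ± 0.0268 in sh-Il22ra1 and 2.47 ± 0.222 in sh-ctrl (SD, n = 6 each). These ratios are given as values within each library, with no test.

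**Figure D3:**
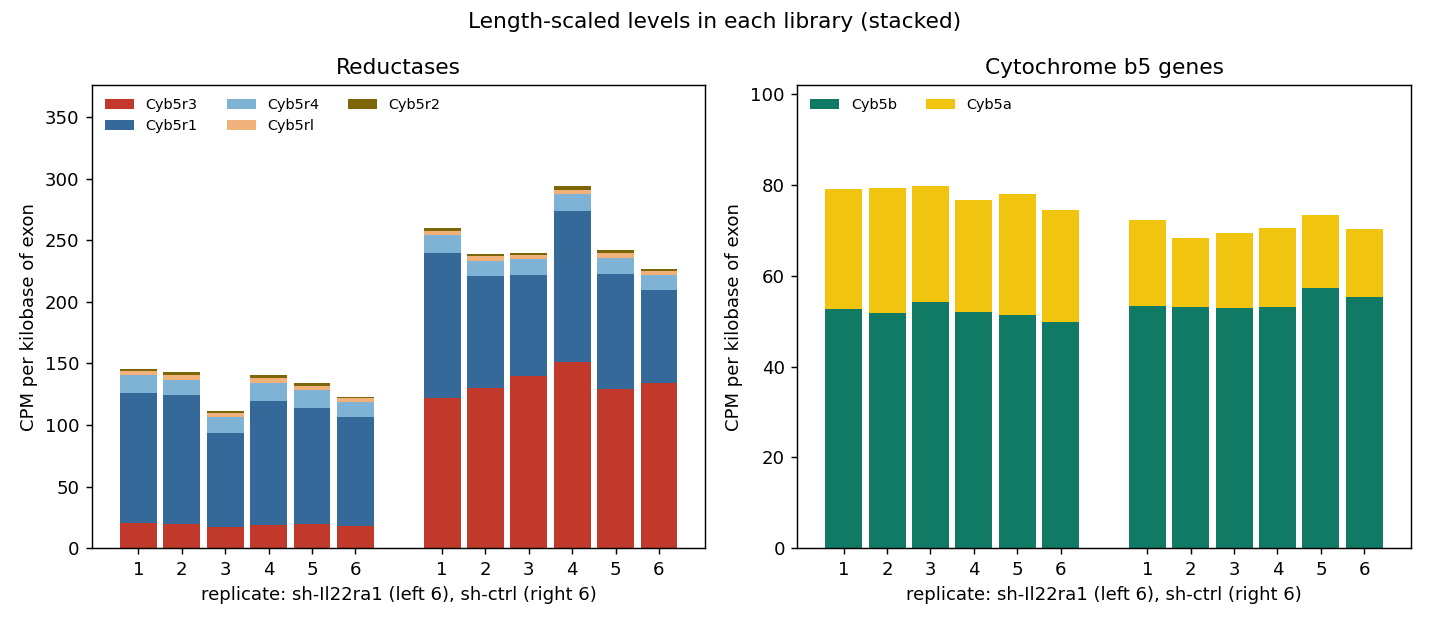
Stacked CPM per kilobase of exon in each library, reductases on the left and the cytochrome b5 genes on the right, with the 6 sh-Il22ra1 libraries left of the 6 sh-ctrl libraries. The Cyb5r3 segment is 17.2 to 20.7 in sh-Il22ra1, against 122 to 151 in sh-ctrl, while the Cyb5a segment is larger in every sh-Il22ra1 library.

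The enzymes that draw electrons from cytochrome b5, or share its domain, were described from lists of genes. Among 8 other proteins with a cytochrome b5-like domain, all tested, 2 rose, 2 fell and 4 did not pass, with a median log2 fold change of 0.05. Fads3, of the fatty acid desaturase family, fell (-1.05, SE 0.214), though only to 1.93 CPM in sh-Il22ra1, against 4.01 CPM in sh-ctrl. The front-end desaturase genes Fads1 and Fads2 went opposite ways, at 438 ± 12.8 CPM in sh-Il22ra1 and 506 ± 34.3 CPM in sh-ctrl for Fads1 (-0.21) and at 436 ± 15.2 CPM in sh-Il22ra1 and 373 ± 43.1 CPM in sh-ctrl for Fads2 (0.23; SD, n = 6 each). Pgrmc1, a heme-binding partner of cytochromes P450, rose (0.20, SE 0.0713; edgeR adjusted p = 0.0264), a call that ended without sh-ctrl replicate 2 (0.16) or 6 (0.17), without sh-Il22ra1 replicate 1 (0.17), 2 (0.18) or 6 (0.19), and with length and GC offsets (0.11).

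Of 11 tested desaturases and hydroxylases of fatty acids and sphingolipids, 2 rose, 4 fell and 5 did not pass (median 0.09), and Fads1, Fads2, Fads3 and Fa2h stand in this list too. Scd1, a stearoyl-CoA desaturase gene, fell to 17.3 ± 2.09 CPM in sh-Il22ra1, against 30.3 ± 6.39 CPM in sh-ctrl (SD, n = 6 each; -0.81, SE 0.125). Scd2, the far more abundant paralog, was at 450 ± 36.1 CPM in sh-Il22ra1 and 422 ± 74.4 CPM in sh-ctrl and did not pass (0.09; edgeR adjusted p = 0.441), but it passed with length and GC offsets (0.21, adjusted p = 0.00804). Scd3 rose (0.52, SE 0.1045), and since the Scd genes resemble each other in sequence, reads may be split between them. Degs2, a dihydroceramide hydroxylase and desaturase, fell (-0.55, SE 0.0685), and Evl on the opposite strand overlaps part of its exons. Among 6 sterol synthesis genes, Msmo1, the C4-methyl sterol oxidase, fell to 21.6 ± 3.01 CPM in sh-Il22ra1, against 62.9 ± 3.75 CPM in sh-ctrl (SD, n = 6 each; -1.54, SE 0.0845), and Hsd17b7 rose (0.36, SE 0.0949). The other 4 did not pass, of which Cyp51, the lanosterol demethylase, came closest (-0.15; edgeR adjusted p = 0.0509), and the number called lower was 2 in place of 1 under 12 of 22 alternatives. In fatty acid elongation 4 of 11 tested genes rose, 1 fell and 6 did not pass (median 0.12): Hacd1, a 3-hydroxyacyl-CoA dehydratase (0.82, SE 0.0909), Elovl7 (0.35), Hsd17b12 (0.31) and Elovl1 (0.30) were higher, while Elovl6 was at -0.54 (SE 0.177).

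Of 8 tested genes in a list of amidoxime, P450 and other quinone or NADPH reductases, 3 rose, 1 fell and 4 did not pass (median 0.15). The thioredoxin reductase gene Txnrd1 rose (0.48, SE 0.0730) and its mitochondrial counterpart Txnrd2 fell (-0.31, SE 0.0706). Aifm2, the gene of an NADH-dependent coenzyme Q reductase at the plasma membrane, rose (0.40, SE 0.0850). Nqo1, a quinone reductase, had few reads, at 1.02 ± 0.323 CPM in sh-Il22ra1 and 0.643 ± 0.125 CPM in sh-ctrl (SD, n = 6 each; 0.66, edgeR adjusted p = 0.0421), and its call ended under 13 of 21 alternatives. Por, the NADPH-cytochrome P450 reductase that can also reduce cytochrome b5, was at 162 ± 3.05 CPM in sh-Il22ra1 and 148 ± 14.6 CPM in sh-ctrl (SD, n = 6 each). It did not pass (0.14; edgeR adjusted p = 0.0645), but it passed without sh-ctrl replicate 4 (0.18, adjusted p = 0.00365), without sh-ctrl replicates 1 and 4 (0.18), with a replicate block (0.14) and with length and GC offsets (0.23). Marc2, the amidoxime-reducing enzyme gene served by Cyb5b, was at 106 ± 4.92 CPM in sh-Il22ra1 and 95.8 ± 15.0 CPM in sh-ctrl (SD, n = 6 each) and did not pass (0.14; edgeR adjusted p = 0.156).

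Coenzyme Q can be reduced by the Cyb5r3 product at the plasma membrane. Of 13 tested genes listed for coenzyme Q synthesis, 7 rose, 3 fell and 3 did not pass, at a median of 0.21. Coq4, a scaffold of the synthesis complex, rose to 38.9 ± 3.19 CPM in sh-Il22ra1, against 21.0 ± 2.73 CPM in sh-ctrl (SD, n = 6 each; 0.89, SE 0.0857), and the methyltransferase gene Coq3 rose by a similar log2 fold change (0.90, SE 0.0962). Trub2 on the opposite strand covers 8.29% of the exon bases of Coq4. Coq9 (0.44) and the methyltransferase gene Coq5 (0.35) rose too, while Coq10b (-0.48), Coq7 (-0.45) and Adck4 (-0.20) were the 3 that fell. Of 12 genes of heme synthesis and breakdown, the source of the b5 cofactor, 5 rose, 2 fell and 5 did not pass, at a median of 0.12. Uros, the uroporphyrinogen synthase gene (0.58, SE 0.0683), Cpox (0.40), Fech, which inserts iron into the ring (0.30), and Urod (0.30) were higher. Of 5 tested genes of the cytochrome b561 family, which are unrelated ascorbate-dependent electron carriers of membranes, Cyb561d2 fell (-1.08, SE 0.0942), Cyb561 of dense-core granules fell (-0.64, SE 0.0613) and Cyb561a3 rose (0.74, SE 0.0803). The other 2 did not pass, and the list's median was 0.05. Cyb561a3 shares 20.1% and Cyb561 10.8% of exon bases with genes on the opposite strand. Soluble guanylate cyclase, whose heme the Cyb5r3 product reduces in vascular smooth muscle, had 1 gene tested, Gucy1a2, which did not pass (-0.42; edgeR adjusted p = 0.189). Against the 51.9% of all tested genes that were called, the called share of the lists with at least 5 tested genes ran from 33.3% in sterol synthesis to 76.9% in coenzyme Q synthesis, and these are counts with no test of a list.

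**Figure D4:**
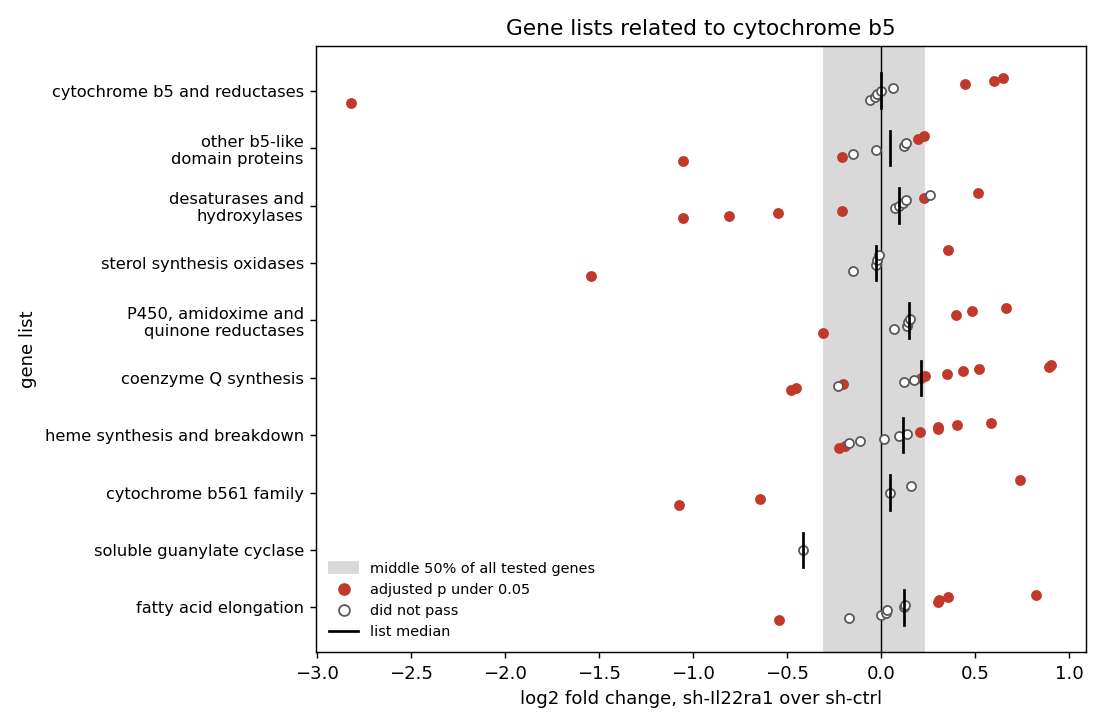
Log2 fold change, sh-Il22ra1 over sh-ctrl, of every tested gene in each list, with filled points for genes that passed the edgeR test, a black line at the list median and a grey band over the middle 50% of all tested genes. Medians lie between -0.03 and 0.21 apart from the list with 1 tested gene at -0.42, and Cyb5r3 at -2.82 and Msmo1 at -1.54 are the lowest points.

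Genes whose pattern over the 12 libraries was most like that of Cyb5r3 were found by the root mean square difference of log2 CPM. Each gene was centred on its own mean. The comparison took in 10289 genes whose mean reached 5 CPM, with predicted genes (Gm followed by digits, or names ending in Rik) left out. Nearest were Map6d1 (difference 0.33), Rab2b (0.33), Rab31 (0.34), Sorcs2 (0.39) and Stx2 (0.40), with log2 fold changes of -2.33, -2.72, -2.19, -2.88 and -2.06. Rab31 had the most reads of the 5, at 17.2 CPM in sh-Il22ra1 and 78.2 CPM in sh-ctrl. In sh-Il22ra1 the means of Map6d1 (3.43 CPM), Rab2b (1.74 CPM) and Sorcs2 (1.51 CPM) were below 5 CPM. These 3 genes reached that limit only through sh-ctrl (17.2, 11.5 and 11.1 CPM). Genes on the opposite strand cover 77.6% of the exon bases of Rab2b, so its reads are uncertain. For Cyb5a the 5 nearest were Rmi2 (0.06), Dynll1 (0.07), Sod2 (0.07), the heme synthesis gene Uros (0.07) and Acot13 (0.08), with log2 fold changes of 0.58 to 0.64. The measure takes in the difference between the groups, so a like fold change was largely fixed by the choice and is no separate result.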

How the data were processed

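Per the labels' protocols, TRIzol-extracted total RNA went into a VAHTS Universal V6 library kit, and paired ends were sequenced. The submitters' processing notes list HISAT2 2.0.5, HTSeq and mm10; the strand setting and annotation are not given there. The deposited files hold whole-number read counts for 24421 symbols, and 5 rows of unassigned reads (23.5% to 31.7% of a file) were left out. A series table in CPM was not used here.

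The tests were run with edgeR 4.0.16 (R 4.3.3): filterByExpr (minimum count 10, minimum total 15) kept 13102 of 19024 detected genes, with TMM scaling, the quasi-likelihood test (two-sided) and Benjamini-Hochberg adjustment. The common biological coefficient of variation was 0.1045. Depth was 13108494 to 15887448 gene reads a library, and the SE is the size of the log2 fold change divided by the square root of F. Positions, exon lengths and overlaps came from the basic set of GENCODE M21 (GRCm38), in which 23376 symbols matched by name and 670 by synonym. Alternatives were RLE and upper-quartile scaling, scaling without Ins1, Ins2, Iapp and Rn45s, DESeq2 1.42.0, limma-voom 3.58.1, no filter, a mean of 1 CPM, a replicate block, length and GC offsets, and leaving out libraries. Within groups the nearest pair of libraries had a chi-square over its degrees of freedom of 3.96, more than sampling noise.

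Members and lists were chosen with earlier results of these data known. Named were all 9 members, Il22ra1, Scd1, Scd2, Por, Nqo1, Ins1, Ins2, Pdx1, up to 4 called genes with the smallest p in each of 9 pathway lists, the 5 genes nearest to Cyb5r3 and to Cyb5a, and markers of other cell types above 50 CPM, of which 1 is not reported here; other genes in the text were chosen after their values were seen.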

Additional observations from a re-analysis of the deposited data

Results flagged for a closer look

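A library far from the other 5 of its group (by Dixon's ratio) was looked for in 110 groups, which are the 9 members, Il22ra1 and 45 other named genes in both conditions. No member was among the 3 such values found, and chance alone gives about 1 in 20 groups. Hacd1, of fatty acid elongation, was highest in sh-Il22ra1 replicate 6 (30.7 CPM) and, in the other group, in sh-ctrl replicate 1 (17.7 CPM). Hsd17b12, of the same list, was lowest in sh-Il22ra1 replicate 2 (120.3 CPM).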

How the results depend on the processing

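Of the 9 members, 8 kept their direction of call or their lack of one under all 22 alternatives. Cyb5r3 ran from -2.84 to -2.69, Cyb5a from 0.49 to 0.71 and Cyb5d2 from 0.52 to 0.67. Cyb5d1 kept its sign but lost its call in 5: with length and GC offsets (0.28), without sh-ctrl replicates 1 and 4 (0.22), and without replicate 1 of sh-ctrl or replicates 3 or 6 of sh-Il22ra1, where leaving out any 1 library gave 0.33 to 0.52; the cause was not tested. The number of genes called ran from 6231 to 7927, against 6797. Il22ra1 stayed at a CPM ratio of 0.175 to 0.221. Replicate numbers recur in both groups, and deviations of same-numbered libraries correlated between -0.0328 and 0.229. Only 2 of 6 libraries, replicates 1 and 4, matched their own number best, so the numbers were not taken as pairs. With the number as a block 7029 genes were called, Cyb5r3 gave -2.82 and no member changed its call. The SE of Cyb5r1 was 0.0702 with the block and 0.109 without it, and whether same-numbered samples share a source was not tested. Among 45 other named genes, 19 of 987 values lost a call, 7 gained one and none changed sign as a call. Counts in pathway lists moved by over 1.5 times in 25 of 396 cases. At 1 to 20 reads a library, Il22ra1 was too low for the test across genes.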

Other observations

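The nearest tested neighbours of Cyb5r3 on chromosome 15, looked up after the results were known, were lower in sh-Il22ra1 too, by far less. Poldip3, 4.11 kb away, was at 116 CPM in sh-Il22ra1 and 185 CPM in sh-ctrl (log2 fold change -0.67, SE 0.0546). Arfgap3, 127 kb away on the other side, was at 37.0 CPM in sh-Il22ra1 and 43.8 CPM in sh-ctrl (-0.25, SE 0.0667). Over all tested genes 26.5% were called lower and 25.4% higher, and an effect of position was not tested. Beside Cyb5d2 (log2 fold change 0.60), Zzef1, 0.083 kb away, was at 0.18 and did not pass (edgeR adjusted p = 0.328), and Ankfy1, 5.09 kb away, fell (-1.08, SE 0.0921). Beside Cyb5a (0.65), Timm21, 66.3 kb away, rose (0.44, SE 0.131), and Cndp2, 153 kb away, was at 0.09 and did not pass (edgeR adjusted p = 0.399). Beside Cyb5d1 (0.44), Naa38, whose span overlaps it, fell (-0.57, SE 0.129), and Chd3 was at -0.03 and did not pass. Next to the 5 members that did not pass, Tmem183a (0.29) and Adipor1 (0.13) beside Cyb5r1 and Mrpl37 (0.20) and Tceanc2 (0.40) beside Cyb5rl rose, and the other 6 neighbours did not pass.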
